A study of Rattus norvegicus with 2 samples.

Results

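The genes described here encode the mTOR kinase complexes and the proteins that control them directly. They were taken by name from the deposited table of gene reads: Mtor, Mlst8, Rptor, Akt1s1, Rictor, Tsc1, Tsc2, Rheb and Akt1. Of these 9 genes, 7 had a row among the 16846 gene symbols of the table. Rictor and Rheb had none and are not analysed here. All 7 lay above the floor used below, a mean of at least 1 read per 1000000 gene reads (RPM), which 10365 genes passed.

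mTOR is a protein kinase that joins nutrient, energy and growth factor signals to protein synthesis, autophagy and cell growth. It works in 2 complexes. Complex 1 is defined by the scaffold RPTOR and complex 2 by RICTOR, and both hold the subunit MLST8. The GTPase RHEB switches complex 1 on at the lysosome, and the complex of TSC1, TSC2 and TBC1D7 switches RHEB off. AKT1, which lies downstream of PI3K, relieves that brake by phosphorylating TSC2 and the complex 1 inhibitor PRAS40, the product of Akt1s1. In the heart the pathway is known for its part in cardiomyocyte growth and hypertrophy.

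The anti-miR library came from neonatal rat ventricular cells kept for 7 days with an adeno-associated virus (AAV2/9) whose short hairpins inhibit miR-99/100 and let-7. The control library came from cells prepared in the same way that received an empty AAV according to the treatment label, or were mock-transduced according to the protocol text. Hearts were taken at postnatal day 0, cells that stayed unattached to plastic after 2 h were plated, and the protocol states a cardiomyocyte purity above 90%. Each group had 1 library of strand-specific poly(A) RNA, so no difference below has a replicate check, and intervals cover counting error only. No strain, sex or number of animals or litters is given in the sources used here.

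The inhibited miRNAs are shown because Mtor and Akt1 are cited targets of miR-99/100, and Tsc1 and Rictor have been cited as let-7 targets. The mature sequences, from RefSeq on build GRCr8, run 5′ to 3′ with the seed, bases 2 to 8, in capitals.
rno-miR-100-5p: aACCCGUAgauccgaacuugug
rno-miR-99b-5p: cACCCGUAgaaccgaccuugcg
rno-let-7a-5p: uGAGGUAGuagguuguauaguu
rno-let-7c-5p: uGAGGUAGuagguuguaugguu
The first pair shares the seed ACCCGUA and differs at 4 positions outside it, counted from 1 at the 5′ end: A1C, U11A, A16C and U21C, with the base of miR-100 first. The let-7 pair shares the seed GAGGUAG and differs by A19G, with the base of let-7a first. miR-99a-5p is not shown. The knockdown could not be read from poly(A) libraries. Of 13 hairpin genes named for miR-99, miR-100 or let-7, 8 had 0 reads in both libraries. None of the 13 had more than 13 reads in either, and Mir98 was not counted among them.

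The anti-miR library held 14815846 reads on genes and the control library 16031780. In both, fibroblast transcripts far exceeded cardiomyocyte transcripts. Summed over 10 fibroblast markers the level was 127469 RPM in the anti-miR library and 127257 RPM in the control. Over 9 cardiomyocyte markers it was 273 and 241 RPM, mostly from Tnnt2 (161 and 147 RPM) and Actc1 (88.8 and 77.0 RPM). Another 4 (Tnni3, Myh6, Myl3 and Ryr2) had 0 reads in the control and 5 to 23 reads in the anti-miR library. Myl2 went the other way, with 5 and 30 reads, and so did Pln, with 100 and 135 reads. Macrophage markers summed to 7567 and 6935 RPM over 10 genes, endothelial markers to 91.1 and 55.5 RPM over 9, and smooth muscle markers to 2985 and 2998 RPM over 9. Cardiomyocyte, macrophage and endothelial sums were thus higher in the anti-miR library, although within the endothelial list Vwf had 3 and 47 reads and Plvap 0 and 33. The macrophage sum was dominated by Lyz2, with 3937 and 2937 RPM. Within that list 5 genes were higher and 5 lower, among them C1qa with 355 and 528 RPM, and the median log2 ratio was −0.05. The part of these differences in the ratios below was not tested. The genes of the mTOR pathway act in all these cell types, so the levels below are those of mixed cultures, and fewer cells of a type cannot be told apart from less RNA per cell.

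Between the libraries, the mRNAs of the mTOR kinase and its complex 1 partners were at nearly equal levels. Tsc1 had the largest ratio of the 7 genes, with 1.55 times as many RPM in the anti-miR library as in the control. Akt1 was 1.21 times as high. Both differences lay within the scatter of genes at like level, described below. Mtor, Mlst8, Rptor, Akt1s1 and Tsc2 had counting intervals of the ratio that included 1, and those of Tsc1 and Akt1 did not. A difference beyond counting error was common among all genes. An exact binomial test of each gene's reads, chosen after seeing the data, called 57.6% of the genes above the floor. Of the 7 genes, 1 was higher by 1.5-fold or more in the anti-miR library, against 10.8% of all genes above the floor, and 0 were lower by 1.5-fold or more, against 8.56%. At 1.2-fold, 2 of 7 were higher, against 25.7% of all genes, and 0 were lower, against 20.9%. All 7 genes had a mean of at least 10 RPM, where 5.43% of genes were higher by 1.5-fold or more and 3.62% lower. Counts this small, 14.3% and 28.6% of the 7 genes, do not stand apart from those shares. Their median log2 ratio was 0.11, beside 0.03 over all genes above the floor.

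The kinase and its shared subunit came first in the comparison because Mtor is the cited miR-99/100 target at the centre of the pathway. Mtor (chromosome 5, 165531407 to 165640899 on build rn4, plus strand) had 1106 reads in the anti-miR library and 1220 in the control, or 74.6 and 76.1 RPM. The ratio was 0.981 with a 95% counting interval from 0.903 to 1.06, so no difference of Mtor was detectable at this depth. Mlst8 (chromosome 10, 13725510 to 13731261, minus strand) encodes the WD-repeat subunit found in both complexes. It had 362 reads in the anti-miR library and 352 in the control, or 24.4 and 22.0 RPM, a ratio of 1.11 (0.958 to 1.29). Relative to Mtor, and per transcript length, Mlst8 stood at 0.773 in the anti-miR library and 0.681 in the control. The ratio of those ratios, 1.13 (0.956 to 1.35), included 1, so the balance of the subunit and the kinase did not differ beyond counting error.

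The complex 1 genes Rptor and Akt1s1 were also close between the libraries. Rptor (chromosome 10, 109000666 to 109302700, plus strand), the scaffold that presents substrates to the kinase, had 681 reads in the anti-miR library and 684 in the control. That is 46.0 and 42.7 RPM, a ratio of 1.08 (0.967 to 1.2). Akt1s1 (chromosome 1, 95321991 to 95328510, plus strand), the gene of the inhibitory subunit PRAS40, had 914 and 986 reads, or 61.7 and 61.5 RPM. Its ratio of 1.0 (0.916 to 1.10) was the nearest to equality among the 7 genes. Per transcript length, Akt1s1 mRNA exceeded Rptor mRNA 5.67 times in the anti-miR library and 6.09 times in the control, and the ratio of these values, 0.931 (0.808 to 1.07), included 1.

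The TSC genes parted from each other. Tsc1 (chromosome 3, 7645313 to 7672944, plus strand), encoding hamartin, which stabilises TSC2, had 411 reads in the anti-miR library and 287 in the control. The levels were 27.7 and 17.9 RPM, a ratio of 1.55 with an interval from 1.33 to 1.81 and a log2 ratio of 0.63. Tsc2 (chromosome 10, 13848210 to 13883189, minus strand), encoding tuberin, the subunit with the GTPase-activating domain, had 1368 and 1442 reads, or 92.3 and 89.9 RPM, a ratio of 1.03 (0.953 to 1.11). Its last 3 bases are also covered by Pkd1 on the opposite strand, which strand-specific counting keeps apart. Tsc1 mRNA per transcript length therefore amounted to 0.486 of Tsc2 mRNA in the anti-miR library and to 0.322 in the control. The ratio of these shares was 1.51 (1.27 to 1.79), and it does not depend on how the libraries are scaled. The third subunit gene, Tbc1d7, lay between its partners, with 15.7 and 11.1 RPM and a ratio of 1.42 (1.16 to 1.73).

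The Tsc1 difference exceeded counting error but not the scatter of genes at its level. Among the 500 genes nearest to Tsc1 in mean RPM, the central 95% of log2 ratios ran from −0.74 to 0.98, and 0.63 lies inside that span. The same held for each of the 7 genes. For Akt1, the most abundant, the span was −0.35 to 0.35 around a value of 0.28, and for Mtor −0.49 to 0.50 around −0.03.

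**Figure D1:**
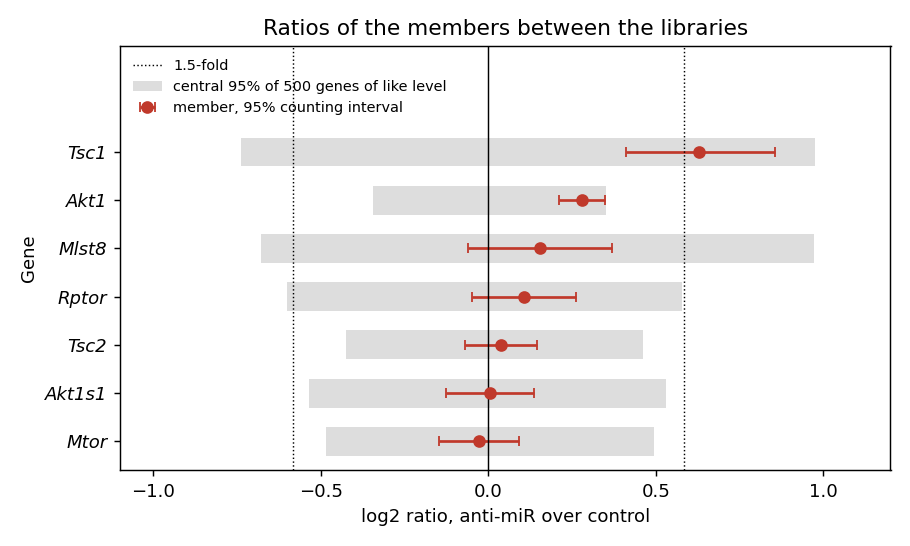
Log2 ratio of anti-miR over control for the 7 genes (points) with 95% counting intervals (red bars). Grey bars are the central 95% of the 500 genes nearest in level and dotted lines mark 1.5-fold; Tsc1 at 0.63 is past the 1.5-fold line and inside its grey bar, and the other points lie between −0.03 and 0.28.

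Akt1 (chromosome 6, 137640482 to 137657552, minus strand), the kinase gene that links PI3K to the TSC complex and a cited miR-99/100 target, had 3524 reads in the anti-miR library and 3142 in the control. The levels were 238 and 196 RPM, a ratio of 1.21 (1.16 to 1.27). Its paralog Akt2, the partner in a planned pair ratio, was nearer to equality, with 73.6 and 69.2 RPM, a ratio of 1.06 (0.977 to 1.16). Per transcript length, Akt1 exceeded Akt2 by 4.0 times in the anti-miR library and 3.50 times in the control. The ratio of these values was 1.14 (1.03 to 1.26), so Akt1 outweighed Akt2 more in the anti-miR library than in the control, beyond counting error.

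Per length of the counted transcript (RPKM, RPM per kilobase), the 7 genes spanned more than an order of magnitude in each library. Akt1 was highest, with 149 RPKM in the anti-miR library and 123 RPKM in the control, followed by Akt1s1 with 39.1 and 39.0 RPKM and Tsc2 with 16.5 and 16.04 RPKM. These 3 were apart from their neighbours in both libraries by intervals that did not overlap. Below them the order was Mtor, Tsc1, Rptor, Mlst8 in the anti-miR library, at 8.81, 7.99, 6.90 and 6.81 RPKM, where each neighbouring pair of intervals overlapped. In the control the order was Mtor, Rptor, Mlst8, Tsc1, at 8.98, 6.40, 6.12 and 5.16 RPKM, where only Mtor was apart from the next gene. Tsc1 was thus the lowest of the 7 in the control and the fifth in the anti-miR library. The counted model of Akt1 spans 1591 bases and that of Mtor 8478, so these levels rest on how complete each model is.

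**Figure D2:**
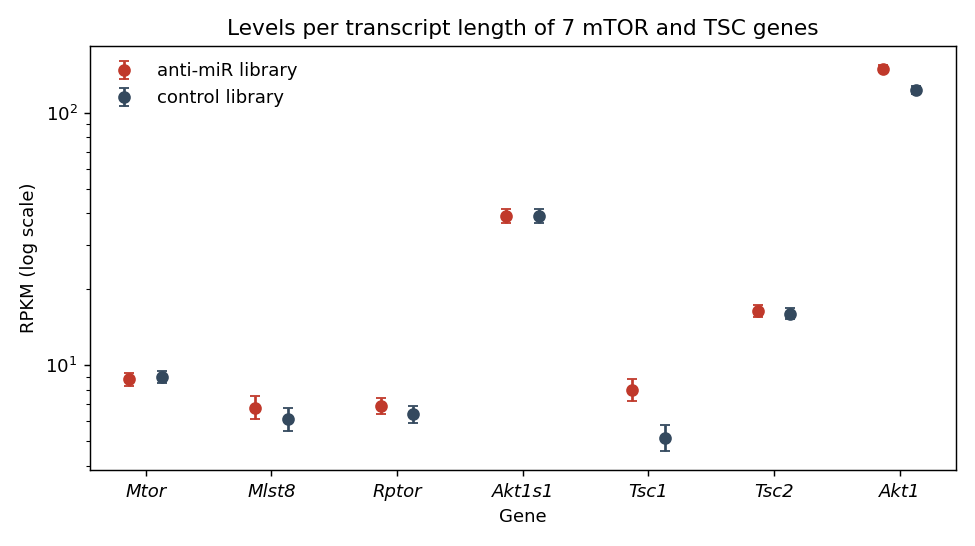
Level of each gene per transcript length (RPKM, log axis) in the anti-miR library (red, left) and the control library (dark, right), with exact 95% Poisson intervals for counting error. Tsc1 is the gene whose points are farthest apart, at 7.99 and 5.16 RPKM; those of Akt1s1 nearly coincide at 39.1 and 39.0.

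Other genes of the pathway were described by lists. Beyond the 7 genes, 114 listed pathway genes passed the floor of 1 RPM. Of these, 10 were higher by 1.5-fold or more in the anti-miR library (8.77%, against 10.8% of all genes) and 2 were lower by 1.5-fold or more (1.75%, against 8.56%). The median log2 ratio was 0.07, beside 0.03 over all genes. The listed genes were somewhat more abundant, with a median of 36.8 RPM against 29.4 RPM over all genes, and scatter is smaller at higher levels. Among all genes of at least 10 RPM, 5.43% were higher by 1.5-fold or more and 3.62% lower. Of the listed genes, 100 of the 114 reached that level. Among those 100, only Gatsl2, Mios, Wdr24 and Tfeb were higher by 1.5-fold or more, and only Pik3ip1 and Pycr1 lower. The other higher genes of the lists were below 10 RPM, so the 8.77% is not to be set beside the 5.43%.

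Set against the 500 genes nearest to each in level, 4 of the 114 were above the central 95% of log2 ratios (Gatsl2, Mios, Shmt2 and Fkbp8) and 1 below it (Pik3ip1), where 5% of genes lie outside by construction. Fkbp8, an FK506-binding protein gene chosen after its value was seen, had 179 and 136 RPM, a ratio of 1.32 (1.25 to 1.40).

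Subunits and paralogs of the complexes had a median log2 ratio of 0.19 over 9 genes. Of these, 1 was higher by 1.5-fold or more (11.1%, against 10.8% of all genes) and 0 were lower (against 8.56%). Prr5, which encodes the complex 2 subunit PROTOR1, was the highest, with 9.04 and 5.86 RPM and a ratio of 1.54 (1.18 to 2.03), while its paralog Prr5l had 8.17 and 7.98 RPM. Mapkap1, encoding SIN1, the subunit that complex 2 needs for its integrity, had 41.2 and 32.0 RPM, a ratio of 1.29 (1.14 to 1.45). The RHEB paralog gene Rhebl1 was the lowest and barely detected, with 24 reads in the anti-miR library and 31 in the control. Tti1, of the complex that assembles mTOR and related kinases, had a ratio of 1.14 (1.0 to 1.30) and Tti2 a ratio of 0.852 (0.699 to 1.04). Mapkap1, Prr5l, Tti1 and Tti2, like Tbc1d7 above, were chosen after their values were seen.

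The amino acid sensing branch held the largest ratios of the pathway. Through this branch the Rag GTPases bring complex 1 to the lysosome; GATOR1 switches them off, and GATOR2 opposes GATOR1. Of 26 genes above the floor, 4 were higher by 1.5-fold or more in the anti-miR library (15.4%, against 10.8% of all genes). Against 8.56% of all genes, 0 were lower, and the median log2 ratio was 0.03. Gatsl2 (chromosome 12, 23733975 to 23773875), which RefSeq now names Castor2 and whose human counterpart binds GATOR2 together with the arginine sensor CASTOR1, had 272 reads in the anti-miR library and 49 in the control. The levels were 18.4 and 3.06 RPM, a ratio of 6.01 (4.42 to 8.32). Its log2 ratio of 2.55 was beyond the central 95% of its 500 neighbours in level, −1.01 to 1.30. The relative Gatsl3, now Castor1, differed the other way, with 28.1 and 37.2 RPM and a ratio of 0.756 (0.665 to 0.858).

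The 3 measured GATOR2 genes had ratios above 1, as did 5522 of the 10365 genes above the floor. Of the 3, only Mios lay outside its like-level span. Mios (chromosome 4, 33263653 to 33289228) had 246 and 99 reads, or 16.6 and 6.18 RPM, a ratio of 2.69 (2.12 to 3.43). The log2 ratio, 1.41, was beyond its like-level span of −1.02 to 1.30. Wdr24 had 35.6 and 23.4 RPM, a ratio of 1.52 (1.33 to 1.74), inside its span. With TMM or median-of-ratios scaling its log2 ratio was 0.58, short of 1.5-fold, which leaves 3 genes of this list at least 1.5-fold higher. Sec13, which also serves in vesicle coats and nuclear pores, had 87.5 and 76.2 RPM, a ratio of 1.15 (1.06 to 1.24). The other GATOR2 genes, Wdr59 and Seh1l, are not analysed here. Kptn, a KICSTOR subunit that in human cells helps to anchor GATOR1, had only 27 reads in the anti-miR library and 8 in the control, a ratio of 3.65 (1.61 to 9.30). At that depth genes of like level spanned −4.51 to 5.06 on the log2 scale.

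Other parts of the branch held ratios on both sides of 1. The 3 GATOR1 genes ranged from −0.17 to 0.26 on the log2 scale and the 5 Ragulator genes, which anchor the Rag GTPases, from −0.20 to 0.38. Rragc, a cited let-7 target, had 313 and 320 RPM, a ratio of 0.978 (0.94 to 1.02). Rragd was the lowest of the branch, with 13.3 and 18.3 RPM and a ratio of 0.728 (0.604 to 0.875). The sestrin genes, of leucine sensors that bind GATOR2, lay between 0.03 and 0.23. Slc38a9, an arginine sensor of the lysosomal membrane, stood at 11.9 and 8.67 RPM, with a ratio of 1.37 (1.09 to 1.72). Fnip2, of a folliculin partner, had a ratio of 1.26 (1.14 to 1.40). Slc38a9, Fnip2, Sec13, Gatsl3 and Rragc were chosen after their values were seen.

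**Figure D3:**
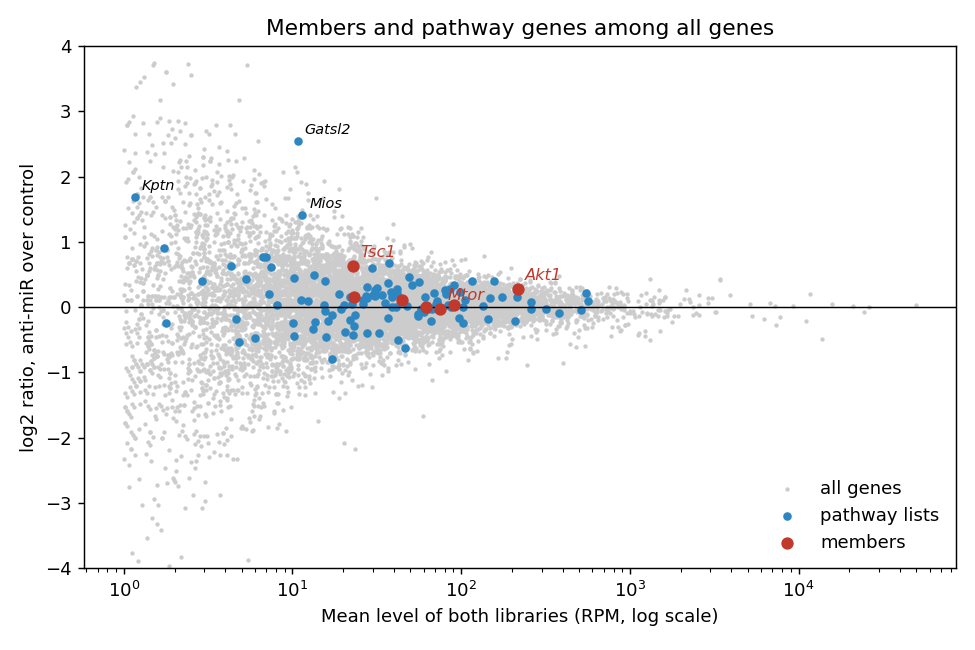
Log2 ratio of anti-miR over control against the mean level of both libraries (RPM, log axis) for genes with a mean of 1 RPM or more (grey), pathway genes (blue) and the 7 mTOR and TSC genes (red); 84 genes lie outside the plotted limits of −4 and 4. Scatter narrows with level, Gatsl2 at 2.55 and Mios at 1.41 stand at its upper edge, and Tsc1 at 0.63 lies within it.

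Among genes that feed PI3K and Akt, 0 of 17 were higher by 1.5-fold or more, against 10.8% of all genes. In the same list 1 was lower (5.88%, against 8.56%), and the median log2 ratio was 0.11. The lower gene was Pik3ip1, encoding a membrane inhibitor of PI3K and cited as a let-7 target. It had 543 reads in the anti-miR library and 906 in the control, or 36.6 and 56.5 RPM, a ratio of 0.649 (0.582 to 0.722). Its log2 ratio of −0.62 lay below the like-level span of −0.49 to 0.58. The receptor gene Igf1r, cited for both miRNA families, had 19.4 and 26.1 RPM, a ratio of 0.746 (0.639 to 0.868). The insulin receptor gene Insr had 32.6 and 29.0 RPM, a ratio of 1.12 (0.988 to 1.28). Inpp4b, a lipid phosphatase gene, was the highest of this list, at 49 and 40 reads, and its interval of 0.855 to 2.07 included 1. Insr was chosen after its value was seen.

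Energy and stress inputs include AMPK, the energy sensor that phosphorylates TSC2 and RPTOR. This list had a median log2 ratio of 0.05 over 14 genes above the floor. Of these, 2 were higher by 1.5-fold or more (14.3%, against 10.8% of all genes) and 0 were lower (against 8.56%). Both were regulatory subunit genes with a mean below 10 RPM. Prkab2 had 131 reads in the anti-miR library and 83 in the control, and Prkag2 had 125 and 79 reads. Their ratios were 1.71 (1.29 to 2.28) and 1.71 (1.28 to 2.30), inside their like-level spans. The catalytic subunit gene Prkaa1 had 22.7 and 22.0 RPM, a ratio of 1.03 (0.887 to 1.2), whereas Prkaa2, below the floor, had 3 and 17 reads, a ratio of 0.191 (0.0359 to 0.660). Cab39l, of the LKB1 complex upstream of AMPK, was the lowest above the floor, with a ratio of 0.761 (0.662 to 0.874). The stress-induced complex 1 inhibitor gene Ddit4 had 93.7 and 76.9 RPM, a ratio of 1.22 (1.13 to 1.32). The gene of this list outside its like-level span was Fkbp8, described above. Ddit4, Prkaa1 and Prkaa2 were chosen after their values were seen.

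Substrates and effectors of mTOR had a median log2 ratio of 0.07 over 22 genes. Of these, 1 was higher by 1.5-fold or more (4.55%, against 10.8% of all genes) and 0 were lower (against 8.56%). Tfeb, the lysosome and autophagy transcription factor that complex 1 holds in the cytoplasm, was the highest. It had 683 reads in the anti-miR library and 464 in the control, or 46.1 and 28.9 RPM, a ratio of 1.59 (1.41 to 1.8), inside its span of −0.56 to 0.70 on the log2 scale. Its relative Mitf was the lowest, with 58 and 92 reads and a ratio of 0.682 (0.482 to 0.958), and Tfe3 had a ratio of 0.976 (0.895 to 1.06). Among translation genes, Eif4ebp1, a repressor of cap-dependent translation, stood at 86.7 and 86.5 RPM. For its paralog Eif4ebp2 the levels were 45.4 and 37.4 RPM, with a ratio of 1.21 (1.09 to 1.36). The S6 kinase genes Rps6kb1 and Rps6kb2 had ratios of 1.12 (0.996 to 1.25) and 1.22 (1.08 to 1.39). Rps6, encoding the ribosomal protein they phosphorylate, had 587 and 507 RPM, a ratio of 1.16 (1.12 to 1.19). Eif4e, of the cap-binding protein, had a ratio of 1.14 (1.01 to 1.29), Eif4b, of a helicase cofactor, 1.06 (1.01 to 1.11) and Pdcd4, of a helicase inhibitor, 1.2 (1.11 to 1.30). Tfe3 and these translation genes were chosen after their values were seen.

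Transcripts controlled by factors downstream of mTOR and Akt went both ways. The ATF4 list held 15 genes, Atf4 itself beside its targets, some of which complex 1 activity is known to raise. Of the 15 genes, 0 were higher by 1.5-fold or more (against 10.8% of all genes) and 1 was lower (6.67%, against 8.56%). The median log2 ratio was 0.02. Pycr1, of proline synthesis, was the lowest, with 12.6 and 21.9 RPM and a ratio of 0.576 (0.480 to 0.690). Shmt2, of mitochondrial one-carbon metabolism, was the highest, with 132 and 99.4 RPM and a ratio of 1.32 (1.24 to 1.41), just past its like-level span of −0.48 to 0.38 at a log2 ratio of 0.40. Over 15 FOXO target genes, which Akt activity is known to lower, the median was 0.05. Of these, 2 were higher by 1.5-fold or more (13.3%, against 10.8% of all genes) and 1 was lower (6.67%, against 8.56%). The higher genes were the muscle ubiquitin ligases Fbxo32, with 78 and 54 reads, and Trim63, with 34 and 19 reads, both inside their like-level spans. The lower gene was Pik3ip1, described above.

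**Figure D4:**
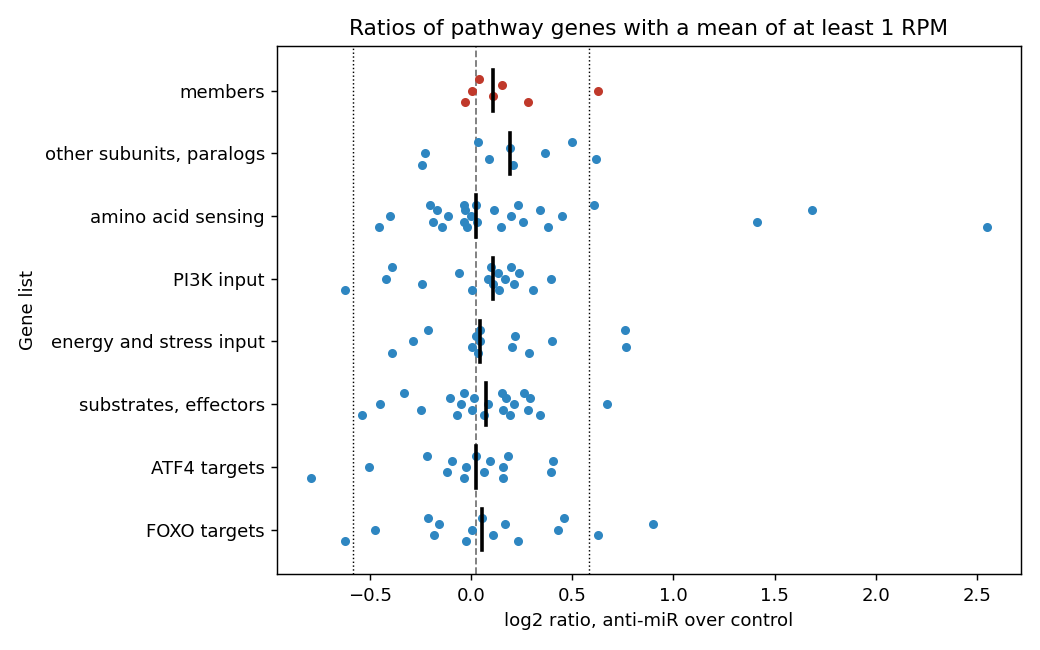
Log2 ratio of anti-miR over control for each gene averaging 1 RPM or more (points), by list, with the list's median (black bars), the median of all genes (dashed line) and 1.5-fold (dotted lines). The list medians lie between 0.02 and 0.19, and the 3 points beyond 1 belong to amino acid sensing.

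Cited targets of the inhibited miRNAs within the pathway had medians near 0. The 5 genes cited for miR-99/100 (Mtor, Akt1, Igf1r, Insr and Fkbp5) had a median log2 ratio of 0.03. Their range ran from −0.42 for Igf1r to 0.28 for Akt1. Of these 5, 0 were higher by 1.5-fold or more (against 10.8% of all genes) and 0 were lower (against 8.56%). The 9 measured genes cited for let-7 had a median of 0.00. Of these, 1 was higher by 1.5-fold or more, Tsc1, and 1 lower, Pik3ip1. Each is 11.1% of the list, against 10.8% of all genes higher and 8.56% lower. All measured genes of both lists had a mean of at least 10 RPM, where 5.43% of genes were higher and 3.62% lower. Counts in lists this short do not stand apart from those shares. The libraries measure mRNA, and neither the kinase activity of the complexes nor protein levels were measured. The 3 pathway genes of at least 5 RPM with a log2 ratio nearest to that of Tsc1 were Prr5 at 0.62, Wdr24 at 0.61 and Tfeb at 0.67; with 2 libraries this likeness is a single difference each.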

How the data were processed

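The authors deposited 1 table of gene-level signal, that is, read counts multiplied by 1 factor per library. HOMER, per the file headers, counted reads over exons of RefSeq transcripts on rat build rn4, on 1 strand, with 1 transcript per gene; the submitters' processing notes also list STAR 2.2.0c and CASAVA 1.8.2. How reads matching several places were treated, and the scaling step, are not given in the sources used here. Column totals of the deposited signal are 15423812 (anti-miR) and 15423813 (control). Whole reads were recovered by dividing it by the value of 1 read, 1.04 and 0.962: of values up to 400 reads, 100% were whole within 0.005 units. The 1 repeated symbol was counted once.

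RPM divides recovered reads by the library's total, and RPKM further by the table's transcript length. The log2 ratio is log2((anti-miR RPM + 0.1)/(control RPM + 0.1)), which understates differences of low genes. Ratio intervals are exact Clopper-Pearson 95% intervals, and pair intervals are conditional exact ones. Both cover counting error only, as each group has 1 library. They take each read as independent, and the reads carry no molecular identifiers to tell copies apart. A count of 0 allows 3 reads, 0.202 RPM in the anti-miR library and 0.187 RPM in the control. With 1 library per group there is no test. The ratio code was tested on simulated data. Of the listed genes, 3 were matched by accession to an older symbol (RefSeq, GRCr8). Planned pairs with Rictor or Rheb could not be computed.

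Named genes are the 9 genes above, each list's highest and lowest ratio above 1 RPM, genes at least 1.5-fold apart and the 3 nearest to Tsc1, plus Akt2 through a planned pair; others are marked as chosen later. Genes and lists were chosen with earlier results of these data known. Software was Python 3.11.15, scipy 1.17.1 and edgeR 4.0.16.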

Additional observations from a re-analysis of the deposited data

How the results depend on the processing

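Alternatives were a pseudocount of 1 RPM, edgeR's TMM factors, median-of-ratios size factors, a total without the 100 most abundant genes, and other floors. Under the scalings and the pseudocount, all 28 values of the 7 genes stayed inside their counting intervals, with Tsc1 between 0.60 and 0.62, Akt1 between 0.25 and 0.28 and Mtor between −0.05 and −0.03 on the log2 scale. Akt1s1, at equality, ran from −0.02 to 0.00. The largest shift of the median of all genes was −0.02, under edgeR's TMM factors, and no list median moved by more than 0.1. Counts over all genes depended on the floor. With no minimum 1891 genes were at least 1.5-fold higher, against 1124 with the floor of 1 RPM. With a floor of 10 RPM, 431 were at least 1.5-fold higher and 287 lower, against 1124 and 887, and 1665 at least 1.2-fold higher and 1301 lower, against 2666 and 2165. At that floor 0 genes at least 1.5-fold higher were left among other subunits and paralogs, energy and stress inputs and FOXO targets. Wdr24, at 0.61, was at 0.58 with TMM and with median-of-ratios factors, short of 1.5-fold, which leaves 3 of 4 genes at least 1.5-fold higher in amino acid sensing. With a pseudocount of 1 RPM, Prr5 fell short of 1.5-fold and 1 FOXO target was past it. An exact binomial test of each gene's reads with Benjamini-Hochberg adjustment, chosen after seeing the data, called 5975 of 10365 genes (57.6%), against 2011 at least 1.5-fold apart, and Tsc1 and Akt1 among the 7 genes; it compares these libraries, not the conditions. No paired analysis was possible because each group has 1 library, and for the same reason no library could be left out. Depth limits genes such as Kptn and Rhebl1, with at most 31 reads in either library.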
